A study of Homo sapiens with 2 samples.

Results

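The 10 genes described here encode the core of JAK-STAT signalling: the kinases JAK1, JAK2 and TYK2, the shared receptor gp130 (gene IL6ST), the transcription factors STAT3, STAT5A, STAT5B and STAT6, and the inhibitors SOCS1 and SOCS3. They were chosen by symbol, and all 10 were among the 18944 genes of the deposited count table. RNA had been sequenced from the lung adenocarcinoma line H1993, an established cell line that carries extra copies of the gene for the receptor tyrosine kinase MET. One library came from a derivative resistant to PHA665752, a drug that inhibits the kinase activity of MET, and 1 from the parental line. The resistant cells had been selected in PHA665752 raised from 1 nM to 1 µM, were kept in 1 µM, and had 1 week in drug-free culture ahead of each experiment. The labels give PHA665752 as the treatment of the resistant library and DMSO, the solvent, as that of the parental library, and do not state if the drug was on the cells at harvest. Both were grown in the same serum-supplemented medium, and whether the resistant line is 1 clone or a mixed population is not given in the sources used here.

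In JAK-STAT signalling a cytokine draws its receptor chains together, the JAK kinases bound to them phosphorylate each other and the receptor, and STAT proteins that dock there are phosphorylated, pair up and enter the nucleus. There they bind DNA at short palindromes and switch on target genes, among them the SOCS genes, whose proteins then block the kinases or the receptor. gp130 is the signalling chain shared by the interleukin-6 group of cytokines. In lung adenocarcinoma cells, gp130, JAK1 and STAT3 are known for carrying autocrine interleukin-6 signals. mRNA levels give neither the amount of the proteins nor their phosphorylation.

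With 1 library per group, no difference has a replicate check, and neither a test nor a p-value was possible. The counts summed to 17086748 in the resistant and 16723181 in the parental library. Levels are in CPM, the standard unit of a gene's counts relative to library size, here after TMM scaling, and genes that reached 1 CPM in either library were tested. Folds are resistant over parental with exact 95% intervals, which cover counting error only. Calls of at least 2-fold, higher or lower, needed a log2 ratio of 1 or beyond and an interval clear of 0. Of 12245 tested genes, 12.1% were called higher and 8.29% lower, and the log2 ratios had quartiles of -0.39 and 0.43. The epithelial markers EPCAM, CDH1, KRT8, KRT18 and KRT19 summed to 6721 CPM in the resistant and 6106 CPM in the parental library. Most of that sum was KRT8 and KRT18, which were 1.27-fold and 1.26-fold higher. The other 3 were lower: EPCAM 2.38-fold (2.27 to 2.49), and CDH1 1.61-fold and KRT19 1.54-fold, both short of 2-fold. Of the lung lineage markers, NKX2-1 stood at 5.95 CPM in resistant and 4.16 CPM in parental cells, while NAPSA had 0 counts and SFTPB and SFTPC had at most 2 counts in either library.

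Of the 10 genes, 9 were tested, and 4 of these were at least 2-fold higher in resistant cells: STAT6, STAT5A, IL6ST and SOCS3. The share called higher among all tested genes was 12.1%. None of the 9 tested genes was called at least 2-fold lower, at an 8.29% background. Since STAT6 and STAT5A lay under 1 CPM in the parental library, they were tested only through the resistant one, and the filter fixed their direction. Of 712 tested genes that were that low in parental cells, 86.9% were called higher. The other 7 tested genes had at least 1 CPM in parental cells, and 2 of them, IL6ST and SOCS3, were called higher, at a background of 7.47% among 11533 such genes. SOCS1 reached 1 CPM in neither library and was not tested.

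**Figure D1:**
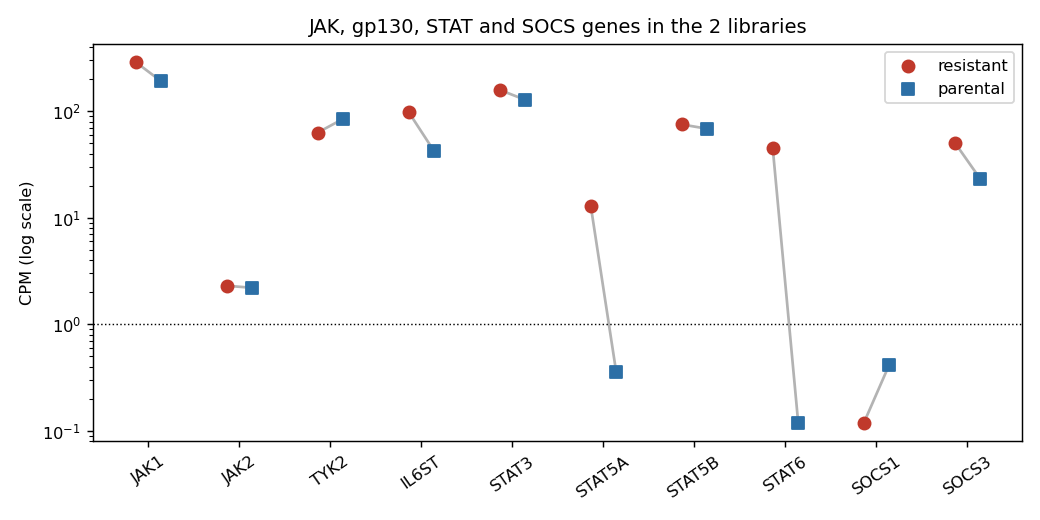
CPM (log axis) of each of the 10 genes in the resistant (circle) and the parental (square) library, 1 library each, with a dotted line at 1 CPM. STAT6 and STAT5A cross the 1 CPM line between the libraries, at 45.2 and 13.0 CPM in resistant cells and 0.119 and 0.356 CPM in parental cells.

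STAT6 and STAT5A were close to silent in the parental library and clearly present in the resistant one. Starts of both genes are shown because these are the largest differences among the 10 genes. STAT5B is shown with them as the neighbour and closest relative of STAT5A that was expressed in both libraries. All sequences are RefSeq promoters of build GRCh38.p14, 250 bases before to 50 bases from the start on, 5′ to 3′ on the gene's strand. Capitals mark TTCNNNNGAA, the spacing of the STAT palindrome that STAT6 binds in vitro.
STAT6 (chr12:57110240-57110539, minus strand): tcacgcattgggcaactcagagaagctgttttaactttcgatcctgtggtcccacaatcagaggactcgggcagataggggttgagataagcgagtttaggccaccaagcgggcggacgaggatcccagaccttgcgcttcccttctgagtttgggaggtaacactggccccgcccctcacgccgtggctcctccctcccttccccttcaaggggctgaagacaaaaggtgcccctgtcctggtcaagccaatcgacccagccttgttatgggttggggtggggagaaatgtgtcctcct
STAT5A, outermost start (chr17:42287189-42287488, plus strand): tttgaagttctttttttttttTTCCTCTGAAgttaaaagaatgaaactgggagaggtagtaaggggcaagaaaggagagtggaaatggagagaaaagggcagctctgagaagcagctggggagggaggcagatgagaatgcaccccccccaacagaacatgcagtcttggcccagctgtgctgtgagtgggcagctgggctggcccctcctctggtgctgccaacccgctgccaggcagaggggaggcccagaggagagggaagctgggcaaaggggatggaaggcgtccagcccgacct
STAT5A, CpG-rich start (chr17:42288248-42288547, plus strand): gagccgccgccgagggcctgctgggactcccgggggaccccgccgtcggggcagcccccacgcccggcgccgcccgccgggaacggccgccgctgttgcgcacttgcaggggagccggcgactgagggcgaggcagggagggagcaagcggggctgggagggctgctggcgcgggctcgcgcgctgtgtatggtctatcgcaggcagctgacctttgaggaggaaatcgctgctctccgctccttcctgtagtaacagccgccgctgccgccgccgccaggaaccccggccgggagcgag
STAT5B (chr17:42276342-42276641, minus strand): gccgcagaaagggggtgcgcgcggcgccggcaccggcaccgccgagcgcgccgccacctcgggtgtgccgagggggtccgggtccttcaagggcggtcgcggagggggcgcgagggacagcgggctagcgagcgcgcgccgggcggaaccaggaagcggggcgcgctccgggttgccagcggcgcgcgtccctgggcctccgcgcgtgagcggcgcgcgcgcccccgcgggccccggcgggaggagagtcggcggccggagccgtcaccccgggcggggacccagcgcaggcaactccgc

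The starts of these genes differed in CpG content. The STAT5B promoter held 55 CpG dinucleotides in 300 bases, a number that only 0.375% of 34941 RefSeq promoters reached. The CpG-rich start of STAT5A held 37, its outermost start held 3, and a further STAT5A start between them, not shown, held 5. The single STAT6 start listed held 12, against a median of 14 over all promoters. The deposited counts are per gene and do not tell which start was used. RefSeq listed 18 starts for the 10 genes, and none held TTCNNNGAA, the usual STAT palindrome, which 7.66% of all promoters hold. TTCNNNNGAA was found at 1 of the 18, the outermost STAT5A start, with its first base at -229 from the start, and in 6.46% of all promoters. Both motifs are palindromes, so 1 search covers both strands. No match says only that these letters are not in the window.

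STAT6 carries interleukin-4 and interleukin-13 signals. It had 767 counts (45.2 CPM) in resistant cells and 2 counts (0.119 CPM) in parental cells, a 380-fold difference (95% counting interval 105 to 3146). Among the tested genes its log2 ratio of 8.25 (6.71 to 11.62) ranked 37. Of the 712 genes under 1 CPM in parental cells, 15, STAT6 included, reached its level in resistant cells, where the median of these genes was 2.53 CPM. STAT6 overlaps NAB2, a co-repressor gene on the opposite strand, at their 3′ ends, and the strand setting of the counting is not given in the sources used here. Of the 50-base windows of STAT6 transcripts, 0.578% were found on the opposite strand in other genes, NAB2 and LRP1. NAB2 had 253 counts in resistant and 277 in parental cells, and LRP1 had 229 in resistant and 129 in parental cells. The part of opposite-strand reads in the STAT6 counts was not tested.

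STAT5A, which carries signals of prolactin, growth hormone and several cytokines, had 221 counts (13.0 CPM) in resistant cells and 6 counts (0.356 CPM) in parental cells. The ratio was 36.5-fold (16.5 to 101), a log2 ratio of 5.08. Its near twin STAT5B showed no such gap, with 1275 counts (75.1 CPM) in resistant and 1152 counts (68.4 CPM) in parental cells, 1.10-fold (1.01 to 1.19). STAT5A thus made up 14.8% of the counts of the pair (exact interval 13.0 to 16.7%) in resistant cells and 0.518% (0.190 to 1.12%) in parental cells. The genes share sequence: 10.3% of the 50-base windows of STAT5A transcripts, 507 in all, also occur in STAT5B. How reads from those stretches were assigned is not given in the sources used here, so the split between the pair is uncertain to that extent.

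STAT3, the main STAT downstream of gp130, had 2690 counts (158 CPM) in resistant and 2154 counts (128 CPM) in parental cells. The ratio of 1.24-fold (1.17 to 1.31) was short of the 2-fold rule. Outside the 10, STAT2, a STAT of interferon signalling, was at a log2 ratio of -0.12 (-0.37 to 0.12). STAT4, known mainly from lymphocytes, had 42 counts in resistant and 10 counts in parental cells, 4.17-fold (2.06 to 9.31), and was tested only through the resistant library. On the deposited log2 scale it differed by 0.66.

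The deposited log2 values allow STAT genes to be set against each other per transcript length. After 2 is raised to the value and 1 is subtracted, they behave as CPM per kilobase, and this back-transformed value is called length-scaled here. The 6 STAT genes compared are STAT2, STAT3, STAT4, STAT5A, STAT5B and STAT6. Among these 6, STAT3 was first in both libraries, at 32.1 in resistant and 25.9 in parental cells. STAT6 followed STAT3 and STAT5B in resistant cells, at 11.5 against 14.8 for STAT5B, and was last in parental cells at 0.0303. It made up 17.5% of the length-scaled sum of the 6 genes in resistant cells and 0.0697% in parental cells. STAT5A made up 4.81% of that sum in resistant and 0.202% in parental cells, and STAT3 made up 48.7% in resistant and 59.7% in parental cells. The summed length-scaled level of the 6 genes was 65.9 in resistant cells and 43.4 in parental cells.

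**Figure D2:**
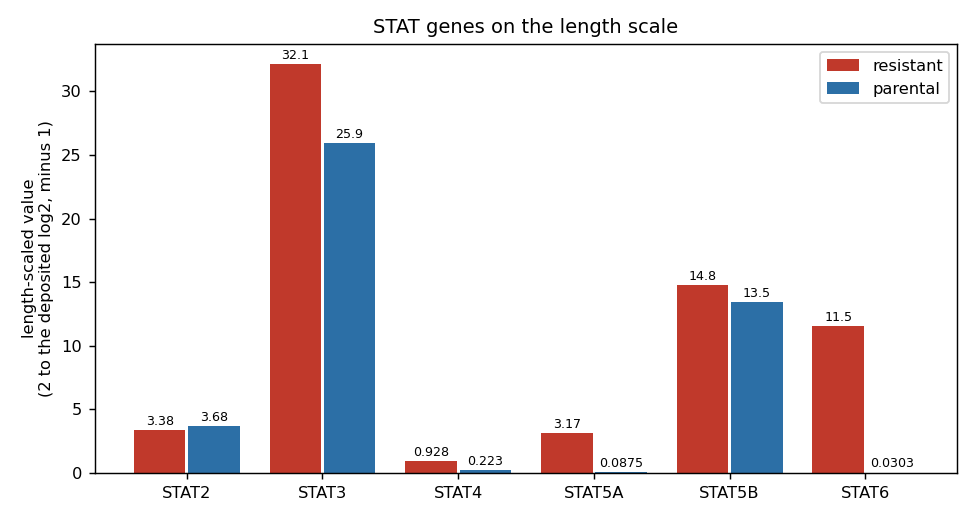
Length-scaled values of 6 STAT genes in the resistant (left bar) and the parental (right bar) library, 1 library each. STAT6 stands at 11.5 in resistant cells and 0.0303 in parental cells, while STAT5B stands at 14.8 in resistant and 13.5 in parental cells.

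The genes around STAT5A on the chromosome did not show its difference. STAT5B, STAT5A and STAT3 follow each other on chromosome 17 in RefSeq order, and STAT5A was the single called gene among these 3 and the 5 nearest tested genes on each side. Those 10 neighbours had log2 ratios between -0.21 (COASY) and 0.61 (PTRF, the older symbol of a caveola gene), with a median of 0.19. On chromosome 12, the nearest tested genes to STAT6 were NAB2, at a log2 ratio of -0.14 (-0.39 to 0.11), and LRP1, at 0.81 (0.50 to 1.14). Among the 10 neighbours of STAT6 the median was -0.15, and NXPH4 (-1.52) and STAC3 (-1.33) were called lower. NDUFA4L2 (1.42), at 17 counts in resistant and 6 in parental cells, was called higher and was tested only through the resistant library. For the neighbours of each gene, the backgrounds were 12.1% called higher and 8.29% called lower. Of the 10 neighbours of IL6ST on chromosome 5, MCIDAS (-1.15) was called lower and none higher. Of the 10 around SOCS3 on chromosome 17, DNAH17 (1.35) was called higher and none lower. On the deposited log2 scale, of these 5 called neighbours, STAC3 (-0.79), NDUFA4L2 (0.56), MCIDAS (-0.78) and DNAH17 (0.26) did not reach a difference of 1.

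**Figure D3:**
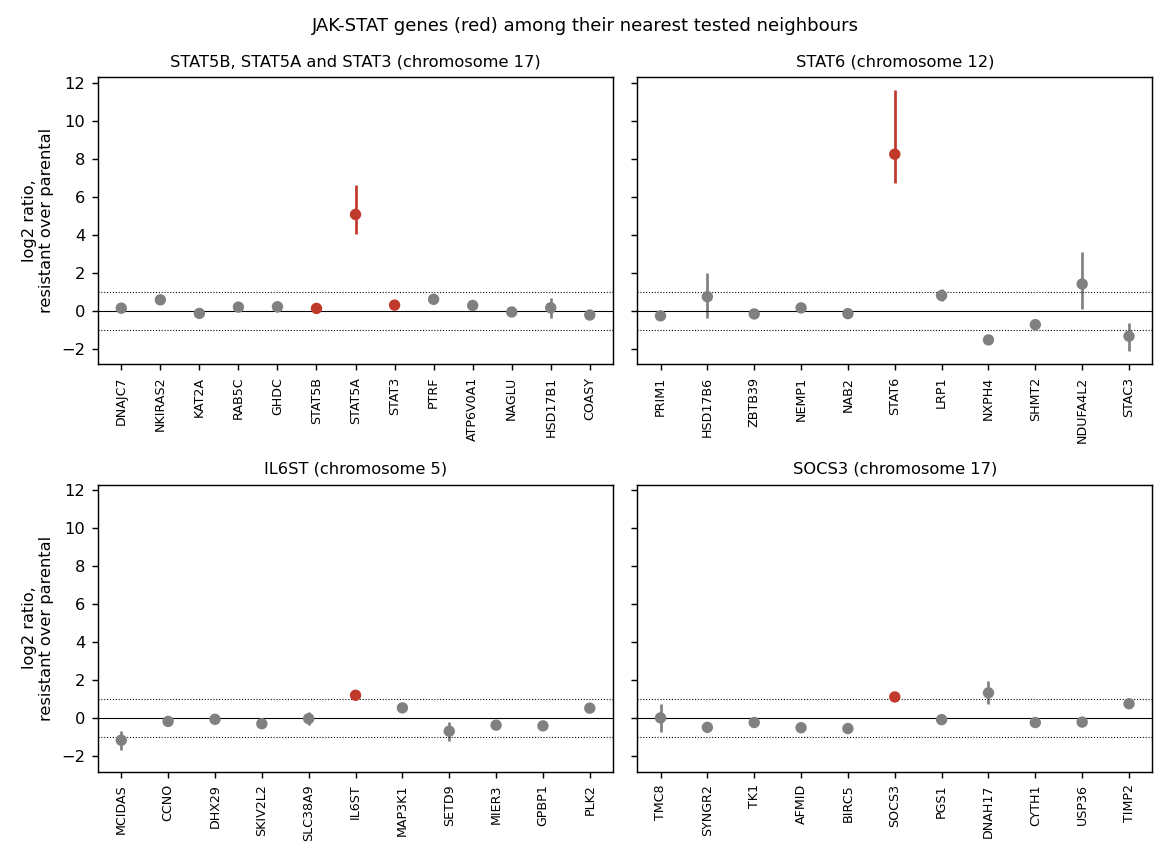
Log2 ratio, resistant over parental, with 95% counting intervals for STAT5B, STAT5A and STAT3, STAT6, IL6ST and SOCS3 (red) and the 5 nearest tested genes on each side (grey) in RefSeq gene order. STAT5A at 5.08 and STAT6 at 8.25 stand above every neighbour shown, and dotted lines mark 2-fold.

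Among the kinases, JAK1 and TYK2 had ratios on opposite sides of 1, both short of 2-fold. JAK1, which serves gp130 and interferon receptors, had 4913 counts (289 CPM) in resistant and 3214 counts (191 CPM) in parental cells, 1.52-fold (1.45 to 1.59). TYK2, the partner kinase of interferon and interleukin-12 receptors, had 1069 counts (63.0 CPM) in resistant and 1427 counts (84.8 CPM) in parental cells, 1.35-fold lower (1.24 to 1.46). JAK2, the kinase of hormone-like receptors such as those of erythropoietin and prolactin, was scarce, with 39 counts in resistant and 37 in parental cells. Its ratio of 1.05-fold had an interval of 0.649 to 1.69, so a difference within that range was not detectable at this depth. JAK3, known mainly from lymphocytes, had 27 counts in resistant and 21 in parental cells, a log2 ratio of 0.34 (-0.53 to 1.25). On the length scale JAK1 stood at 57.5 in resistant and 37.9 in parental cells, TYK2 at 15.0 in resistant and 20.2 in parental cells, and JAK2 at 0.435 in resistant and 0.416 in parental cells. JAK1 was thus the most abundant of these 3 kinases per length in both libraries, and JAK2 the least.

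IL6ST, the gp130 receptor gene, had 1663 counts (98.0 CPM) in resistant cells and 708 counts (42.1 CPM) in parental cells. The ratio was 2.33-fold (2.13 to 2.55). The pseudogene IL6STP1 and 1 further annotated gene share 2.89% of the 50-base windows of IL6ST transcripts on the same strand. A transcript on the opposite strand covers 6.98% of them, so a small part of the reads cannot be placed with certainty.

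gp130 works with a partner chain for each cytokine, and the tested partner genes had ratios above 1. All 4 tested partner receptor genes, of 7 listed, had log2 ratios above 0, where the median of all tested genes was 9.2e-05 and their upper quartile 0.43. Of the 4, 1, LIFR, was called higher, at a background of 12.1%. LIFR, the receptor chain for leukaemia inhibitory factor, had 5317 counts (313 CPM) in resistant and 943 counts (56.0 CPM) in parental cells, 5.59-fold, with a log2 ratio of 2.48 (2.38 to 2.58). On the length scale LIFR stood at 29.97 in resistant cells and 5.36 in parental cells, and IL6ST at 10.6 in resistant and 4.57 in parental cells. IL6R, OSMR and IL27RA were between 1.37-fold and 1.53-fold higher, short of the rule. IL11RA, CNTFR and IL31RA stayed under 1 CPM in both libraries.

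Of 9 cytokine genes of the gp130 group given here, 3 were tested, and these 3 were called higher, at a background of 12.1%. LIF itself had 903 counts (53.2 CPM) in resistant and 219 counts (13.0 CPM) in parental cells, 4.09-fold (3.52 to 4.76). CLCF1, a cytokine that signals through gp130 and LIFR with the CNTF receptor, was 2.55-fold higher (2.22 to 2.94). IL6 had 132 counts in resistant and 0 in parental cells, at least 43.6-fold higher when the 0 is set to 3 counts, and its exact counting interval starts at 34.99-fold. It was tested only through the resistant library, where 86.9% of such genes were called higher. Thus LIF, its receptor chain LIFR and gp130 were each at least 2-fold higher in the resistant library.

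**Figure D4:**
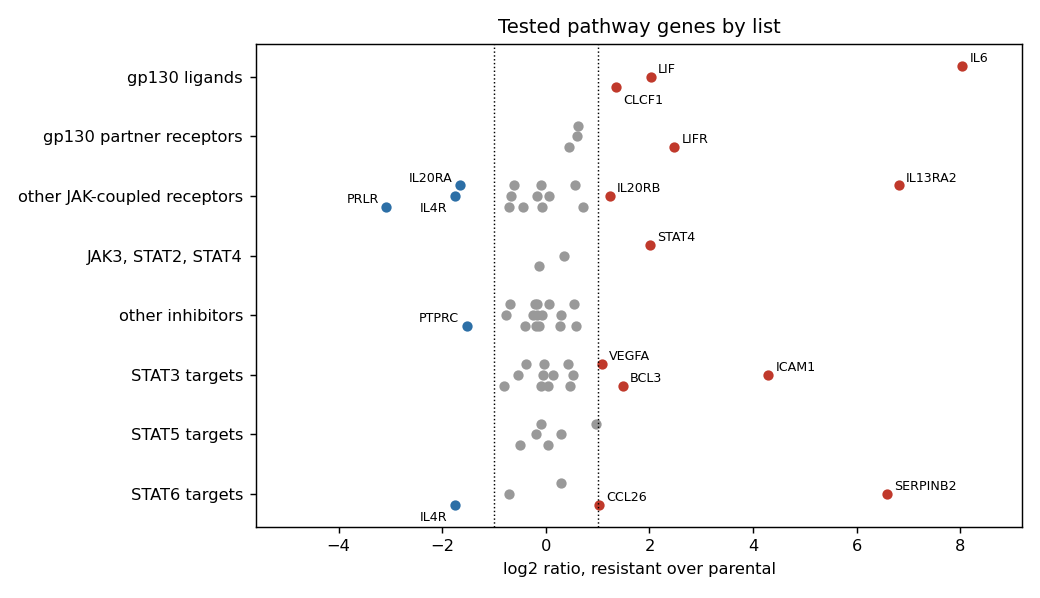
Log2 ratio, resistant over parental, of each tested gene of the 8 pathway lists without the 10 core genes; red points were called at least 2-fold higher, blue points at least 2-fold lower, and dotted lines mark 2-fold. IL6, IL13RA2 and SERPINB2 lie farthest to the right, and PRLR farthest to the left.

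SOCS3, which binds gp130 and blocks JAK1, JAK2 and TYK2, had 862 counts (50.8 CPM) in resistant and 390 counts (23.2 CPM) in parental cells. The ratio was 2.19-fold (1.94 to 2.48), so its interval reached below 2-fold. SOCS1, which blocks JAK kinases downstream of interferon receptors, had 2 counts in resistant and 7 counts in parental cells, a ratio of 0.283 with an interval of 0.0287 to 1.49. Of 16 other inhibitor genes, all tested, 15 passed neither way, none was called higher and 1 was called lower, at backgrounds of 12.1% and 8.29%. The median of the list was -0.17. The most abundant by CPM, the phosphatase gene PTPN11, was 1.62-fold lower (1.54 to 1.69), short of the rule, and the remaining SOCS family genes CISH, SOCS2, SOCS4, SOCS5, SOCS6 and SOCS7 had log2 ratios between -0.26 and 0.29. The 1 lower gene was the leukocyte phosphatase gene PTPRC, at 7 counts in resistant and 21 in parental cells.

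Among the receptor genes for interleukin-4, interleukin-13 and prolactin, IL4R and PRLR were called lower and IL13RA2 was called higher in the resistant library. Of 34 other JAK-coupled receptor genes, 15 were tested, with a median log2 ratio of -0.17. Of these 15, 2 were called higher and 3 lower (13.3% and 20%), at backgrounds of 12.1% and 8.29%, and both higher ones, IL13RA2 and IL20RB, were tested only through the resistant library. IL4R, the receptor chain for interleukin-4 upstream of STAT6, had 270 counts (15.9 CPM) in resistant and 903 counts (53.6 CPM) in parental cells, 3.37-fold lower (2.94 to 3.88). IL13RA1, its partner for interleukin-13, had 1414 counts in resistant and 2143 in parental cells, a log2 ratio of -0.61. IL13RA2, mostly described as a decoy for interleukin-13, had 622 counts (36.6 CPM) in resistant and 5 counts (0.297 CPM) in parental cells, 123-fold higher (52.6 to 381). STAT6 was thus higher in the library in which IL4R was lower and IL13RA2 was higher. PRLR, the prolactin receptor upstream of STAT5, was 8.48-fold lower (6.74 to 10.8), and the chains of the interleukin-20 receptor split, with IL20RA 3.17-fold lower (2.78 to 3.62) and IL20RB, at 22 counts in resistant and 9 in parental cells, higher. The most abundant receptor by CPM, IL7R, was at 112 CPM in resistant and 106 CPM in parental cells. IL2RG, the common gamma chain of the interleukin-4 and interleukin-2 receptors, had 0 counts in both libraries.

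Textbook target genes of the STATs gave a mixed picture. Of 28 listed STAT3 targets, 17 were tested, 5 were called higher and none lower, at backgrounds of 12.1% and 8.29%. These 5 include SOCS3 and IL6ST, which are core genes as well, and BCL3, 2.81-fold higher (2.44 to 3.25), VEGFA, 2.11-fold higher (1.98 to 2.26), and ICAM1, with 49 counts in resistant and 2 in parental cells, 24.3-fold (6.38 to 206). ICAM1 was tested only through the resistant library, where 86.9% of such genes were called higher. The list median of 0.31 was the ratio of the core gene STAT3 itself, which is on the list. CCND1, the most abundant by CPM, was at 484 CPM in resistant and 495 CPM in parental cells. Of the 17, 11 had log2 ratios above 0 and 6 below 0. CEBPD (0.51), HIF1A (0.46), CEBPB (0.43), TIMP1 (0.14) and PIM1 (0.03) did not pass. MYC (-0.80), BIRC5 (-0.53), MCL1 (-0.39), BCL2L1 (-0.09) and JUNB (-0.05) did not pass either. Liver acute-phase targets of STAT3 such as CRP, HP, LBP, FGA and FGG had 0 counts in both libraries. FGB had 16 counts in resistant and 3 in parental cells, under 1 CPM in both, SERPINA3 had 0 in resistant and 2 in parental cells, and A2M had 2 in resistant and 0 in parental cells.

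None of the 6 tested STAT5 targets, of 10 listed, passed 2-fold, at backgrounds of 12.1% higher and 8.29% lower. CISH, the most direct STAT5 target of the list, had 57 counts in resistant and 46 in parental cells, and SOCS2 had 59 in resistant and 67 in parental cells. BCL2L1, the most abundant by CPM, was at -0.09 (-0.20 to 0.03), while PIM2, at 209 counts in resistant and 106 in parental cells, was at 0.96 (0.62 to 1.32), just short of the rule. Of 15 STAT6 targets, 5 were tested, 2 were called higher and 1, IL4R, lower, at backgrounds of 12.1% and 8.29%. CCL26, the eotaxin-3 gene, had 64 counts in resistant and 31 in parental cells, 2.05-fold (1.31 to 3.25). SERPINB2 had 48 counts in resistant and 0 in parental cells, at least 15.9-fold higher when the 0 is set to 3 counts. Its exact counting interval starts at 12.4-fold. It was tested only through the resistant library, where 86.9% of such genes were called higher. The remaining tested STAT6 targets, CISH at a log2 ratio of 0.29 and SERPINB3 at -0.71 (-1.80 to 0.29), passed neither way. The targets CCL17, CCL11, FCER2, CLCA1 and ARG1, had 0 counts in both libraries.

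Over all pathway lists without the 10 core genes, 60 of 110 genes were tested, 12 were called higher and 4 lower. These are shares of 20% and 6.67%, at backgrounds of 12.1% and 8.29%. Of the 12, 6 were under 1 CPM in parental cells and were tested only through the resistant library (IL6, IL13RA2, IL20RB, STAT4, ICAM1 and SERPINB2), and of the 4, PTPRC was tested only through the parental one. On the deposited log2 scale, which compresses low values, STAT4 (0.66), ICAM1 (0.88), IL20RB (0.39), CCL26 (0.92) and PTPRC (-0.21) did not reach a difference of 1. Of the 60, 30 had a log2 ratio above 0 and 30 below 0, and their median absolute log2 ratio was 0.54, against 0.41 over all tested genes. The 10 core genes summed to 795 CPM in resistant cells and 540 CPM in parental cells, and the 7 with at least 1 CPM in parental cells had log2 ratios with STAT3, at 0.31, in the middle.

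**Figure D5:**
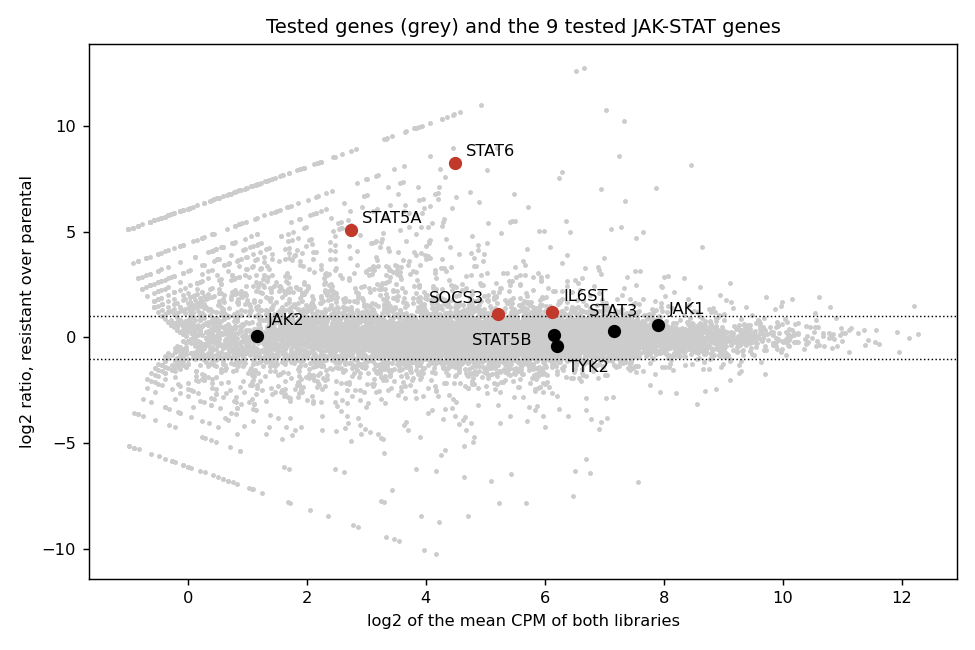
Log2 ratio, resistant over parental, against the log2 of the mean CPM of both libraries for 12245 tested genes (grey) and the 9 tested core genes, red where called at least 2-fold higher and black otherwise. STAT6 at 8.25 and STAT5A at 5.08 lie in the upper part of the cloud, IL6ST and SOCS3 just above the dotted 2-fold line, and STAT3, STAT5B, JAK1, JAK2 and TYK2 between the lines.

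STAT6, STAT5A and STAT4 are expressed in blood cells, and markers of other cell types were counted beside them. Of 4 leukocyte markers, 2 were tested: PTPRC was lower, and CD14 was higher, with 33 counts in resistant and 5 in parental cells and a deposited log2 difference of 0.94. CD3E had 0 counts in both libraries, and LYZ had 2 in resistant and 4 in parental cells. The 4 summed to 2.47 CPM in resistant and 1.78 CPM in parental cells. Of 4 endothelial markers CDH5 alone was tested, with 495 counts in resistant and 5 in parental cells, while PECAM1, VWF and KDR had at most 1 count in either library. Of 5 fibroblast markers COL1A1 alone was tested, at 242 counts in resistant and 348 in parental cells, and COL1A2, PDGFRB, DCN and LUM had at most 3 counts. The part of other cells or of a shift in the cell population in these differences was not tested. Fewer cells of a type and less RNA per cell cannot be told apart in bulk RNA.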

How the data were processed

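The deposited table holds, per the file headers, raw counts for each gene symbol and normalized log2 values. FastQC and STAR are the tools and GRCh38 and hg19 the builds named in the submitters' processing notes. The counting program, annotation and strand setting, and the method behind the log2 values, are not given in the sources used here. For 95.9% of 11052 genes with at least 20 counts in both libraries, the gene length implied by the deposited log2 values and the counts agreed within 5% between libraries, which is why those values were also read as length-scaled. For 70.2% of 10855 such genes, the length implied in the parental library was within 2-fold of the median GENCODE transcript length. Comparisons between genes on the length scale are therefore approximate.

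Libraries were scaled by TMM (edgeR 4.0.16, R 4.3.3) to effective sizes of 16974207 (resistant) and 16834058 (parental). Log2 ratios have 0.5 added to each count; folds and exact conditional binomial intervals (scipy 1.17.1) do not, and reads are not independent molecules. A count of 0 allows 3 counts, or 0.177 CPM in the resistant and 0.178 CPM in the parental library. Shared 50-base windows were counted over GENCODE transcripts, and RefSeq (GRCh38.p14) placed 12210 tested genes.

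The genes and lists were chosen with earlier results of these data known. A further 3 genes of the lists are not reported here and enter no list count, share, median or sum. The rule names the 10 genes, each list's called genes and its most abundant by CPM, and the 5 nearest tested genes on each side of called or adjacent genes. Other genes of the lists were named after their values were seen. Alternatives were DESeq2 1.42.0 size factors, total counts, other CPM filters, added count and size rules, and the deposited log2 values.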

Additional observations from a re-analysis of the deposited data

How the results depend on the processing

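The 4 core genes called higher, STAT6, STAT5A, IL6ST and SOCS3, were called under DESeq2 size factors, total counts, no CPM filter, at least 5 CPM, 1 added in place of 0.5 and the deposited log2 values. With the whole interval beyond 2-fold 3 were called, without SOCS3, and at 1.5-fold 5 were called, with JAK1. No core gene was called lower under any of these. The deposited log2 values gave smaller differences, 3.605 for STAT6 and 1.939 for STAT5A. The deposited values behave as if 1 were added before the logarithm, but the method behind them is not given. With them, 17 of the 27 called genes named passed, and STAT4 (0.66), ICAM1 (0.88), IL20RB (0.39), CCL26 (0.92), PTPRC (-0.21), CD14 (0.94), DNAH17 (0.26), MCIDAS (-0.78), NDUFA4L2 (0.56) and STAC3 (-0.79) did not; over all tested genes 926 were higher and 591 lower. At least 5 CPM left 7 higher and 3 lower pathway genes, because fewer genes were tested. The whole-interval rule gave 1097 higher and 655 lower genes over all tested. At 1.5-fold, 2358 genes were higher and 2012 lower, with 16 pathway genes higher and 10 lower. No direction of a called gene reversed. No paired analysis was possible because each group has 1 library. With 1 library per group, depth limits JAK2, SOCS1 and the size of the STAT6 fold, whose parental count is 2.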
